A study of Mus musculus with 12 samples.

Results

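Gene Ontology (GO) terms on the building of embryos, epithelia, tubes, limbs, glands and organs were followed through 8 lists of genes whose promoters carried more or less H3K4me3 in the hippocampus of 2 mouse mutants. Members were taken by name alone: a term belonged if its name held 'embryo', 'epitheli', 'tube', 'limb', 'appendage', 'organ development', 'organ morphogenesis', 'tissue development', 'pattern' or 'gland', and none of 'heart', 'cardi', 'muscle', 'blood', 'vessel', 'vascul', 'bone', 'skelet', 'brain' or 'migration'. This gave 30 of 490 distinct terms and 55 of 1076 listed rows. No listed term was taken by 'pattern'.

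H3K4me3, a methylation of histone H3 found at promoters of active genes, was profiled by ChIP-seq in whole hippocampus from 12 C57BL/6N mice at postnatal day 30. Of these, 3 were Del/+, heterozygous for a deletion of the Arf2-Kansl1 region, and 3 were Kansl1+/-, with 1 inactivated allele of Kansl1. The other 6 were wt, 3 littermates of each mutant, and the authors used all 6 as the control of both mutants. The Kansl1+/- line descends from a single ES cell clone, and the Del/+ deletion, made by Cre recombination between loxP sites, removes several genes besides Kansl1. The lists were the genes with raised or lowered promoters in each mutant: Kansl1+/- up (343 genes), Kansl1+/- down (483), Del/+ up (512) and Del/+ down (343). The authors further split the raised genes of both mutants into cluster 1 (160 genes, raised in Kansl1+/- but not in Del/+), cluster 2 (214, raised in both), cluster 3 (212, raised more strongly in Del/+) and cluster 4 (162, raised in Del/+ specifically). These sizes are the ones the expected numbers in the tables imply, and they need not equal the numbers of promoters called. The lists overlap, and both mutants were called against the same wt libraries. The values analysed here were gene counts per term. No values per mouse or per gene were analysed, so library depth is unknown and no spread between mice can be given. The tissue was not checked against marker genes here. The paper reports enrichments of cell-type markers in its gene lists, which were not analysed.

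KANSL1 is a scaffold subunit of the NSL complex, which carries the acetyltransferase KAT8 and modifies chromatin at active promoters. Morphogenesis terms collect genes that act when sheets of epithelial cells fold, lengthen into tubes and branch, as in lung, kidney and glands, and when mesenchyme and epithelium exchange signals in limb buds. Many of the same regulators, such as transcription factors and secreted BMP and WNT signals, are used again in the brain, where the choroid plexus and the ependyma are epithelia. A GO term counts every gene annotated to it in any tissue and at any age, so a term name is not a statement about the hippocampus.

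Member terms were listed mostly for genes raised in Kansl1+/-. Cluster 1 listed 23 of them among 190 terms (12.1%), and Kansl1+/- up listed 28 among 302 (9.27%). Clusters 2 and 3 listed 1 each, among 104 and 125 terms, and Del/+ up listed 2 among 250 (0.8%). Cluster 4, with 89 terms, Kansl1+/- down, with 14, and Del/+ down, with 2, listed none. By term, 21 members were listed for both cluster 1 and Kansl1+/- up, 9 were listed for 1 list alone, and 2, organ development and tissue development, for 4 lists. The study describes cluster 1 as raised in Kansl1+/-, so the lists may share most of these genes and are not taken as separate observations.

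A fold is given here as the number of list genes in a term divided by the number expected from the term's share of the 23468 background genes. Its 95% interval is the exact binomial (Clopper-Pearson) interval of the share of the list, which covers counting error alone and treats genes as independent. The median fold of the members was 4.74 in cluster 1 (range 2.97 to 30.9), against 3.99 over all terms listed there, and 3.86 in Kansl1+/- up (2.34 to 7.77), against 3.05. The members of these 2 lists were also smaller at the median, with 495 background genes against 733.5 in cluster 1 and 390 against 724 in Kansl1+/- up. A smaller term needs a higher fold to be listed, so nothing particular to the members is read from their higher medians. In the remaining lists that held any, the median of the members lay below that of all terms: 2.26 against 3.53 in cluster 2, 2.05 against 3.42 in cluster 3 and 1.79 against 3.16 in Del/+ up. The members there were only organ development and tissue development, the 2 broadest terms, with a median of 1699, 2860 and 2279.5 background genes against 644.5, 915 and 643 over all terms of these lists. The same 2 terms also lay below the median of all terms in cluster 1 (2.97 and 3.63) and in Kansl1+/- up (2.34 and 2.86), so no difference between lists is read from it.

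A fold of at least 3 was reached by 22 of 23 members in cluster 1 (95.7%), where 74.2% of all listed terms reached it. In Kansl1+/- up it was reached by 23 of 28 members (82.1%), where 52.6% of all terms did. No member reached it in cluster 2, cluster 3 or Del/+ up, where 62.5%, 59.2% and 53.2% of all terms did. These shares depend on term size. A small term needs a high fold to be listed at all: with 160 genes, a term of 20 background genes needs 4 list genes, or 29.3-fold, and a term of 1000 needs 21, or 3.08-fold. The members of cluster 1 had a median of 495 background genes, against 733.5 over all its terms, and those of Kansl1+/- up 390 against 724. Over the 23 members of cluster 1, fold and term size had a Spearman rho of -0.96, and over all 190 terms -0.97. For Kansl1+/- up the rho was -0.94 over 28 members and -0.97 over all 302 terms. These points share the same genes through nested terms, and the correlation is a description of what can be listed.

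**Figure D1:**
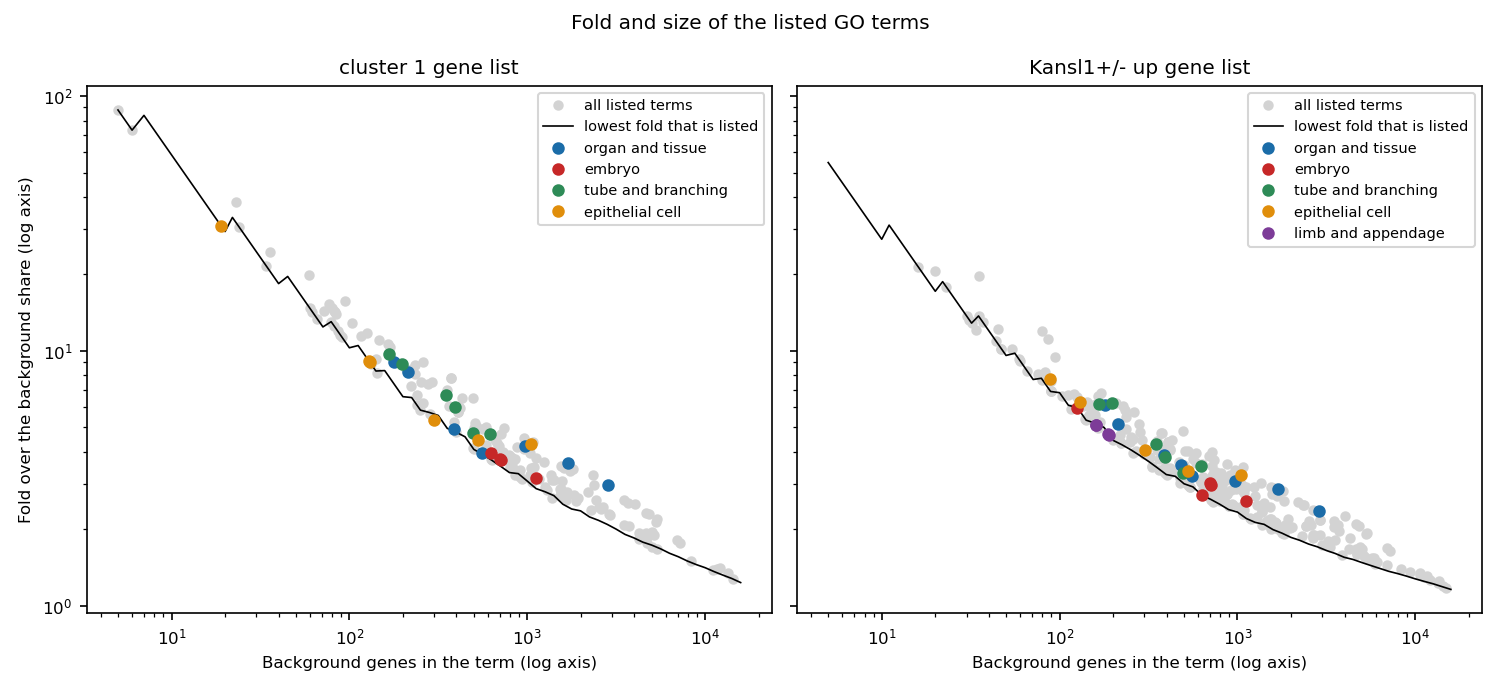
Fold over the background share (log axis) against the number of background genes in a term (log axis) for cluster 1 and Kansl1+/- up, with all listed terms in grey, members coloured by family and the lowest fold that is listed as a line. Members of cluster 1 run from 2.97-fold for organ development (2860 background genes) to 30.9-fold for epithelial cell fate commitment (19), along the same slope as all other terms.

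The 30 members were described in 5 families by role: organs and tissues, the embryo as a whole, tubes and branching, epithelial cells, and limbs and appendages. The counts behind each are given next, first for cluster 1 and then for the whole Kansl1+/- up list.

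Organs and tissues made up 8 terms, of which cluster 1 listed 7 and Kansl1+/- up all 8, with median folds of 4.22 and 3.39. Organ development, the broadest member with 12.2% of the background, was listed for 4 lists. It took 58 of 160 genes in cluster 1 (36.3%, interval 28.8 to 44.2), 53 of 212 in cluster 3 (25.0%, 19.3 to 31.4), 98 of 343 in Kansl1+/- up (28.6%, 23.8 to 33.7) and 109 of 512 in Del/+ up (21.3%, 17.8 to 25.1). The folds were 2.97, 2.05, 2.34 and 1.75. Among these 4 lists, the interval of cluster 1 lay apart from that of Del/+ up alone, and the other 3 had overlapping intervals.

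Tissue development, with 7.24% of the background, took 42 genes in cluster 1 (26.3%, 19.6 to 33.8) and 35 in cluster 2 (16.4%, 11.7 to 22.0). It took 71 genes in Kansl1+/- up (20.7%, 16.5 to 25.4) and 68 in Del/+ up (13.3%, 10.5 to 16.5). The folds were 3.63, 2.26, 2.86 and 1.83. The intervals of the Kansl1+/- up and Del/+ up lists met at 16.5%, apart only beyond the digits shown, and those of clusters 1 and 2 overlapped. The 2 up lists share wt controls and some of their genes, so their counts are given side by side and are not independent.

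The narrower organ terms were listed for cluster 1 and Kansl1+/- up and for no other list. Organ morphogenesis, the shaping of organs, held 28 and 44 of 973 genes in these lists, 4.22-fold and 3.09-fold. Connective tissue development, which covers cartilage and fat, held 12 and 16 of 213 genes, 8.26-fold and 5.14-fold. Regulation of organ morphogenesis held 11 and 16 of 179 genes, 9.01-fold (interval 4.56 to 15.7) and 6.12-fold (3.53 to 9.79), the highest of the family in both lists. Gland development held 13 and 22 of 388 genes, 4.91-fold and 3.88-fold, and sensory organ development, the making of eye and ear, held 15 and 26 of 554, 3.97-fold and 3.21-fold. Embryonic organ development was listed for Kansl1+/- up alone, with 25 of 480 genes (3.56-fold). In cluster 1 it can have held at most 13.

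**Figure D2:**
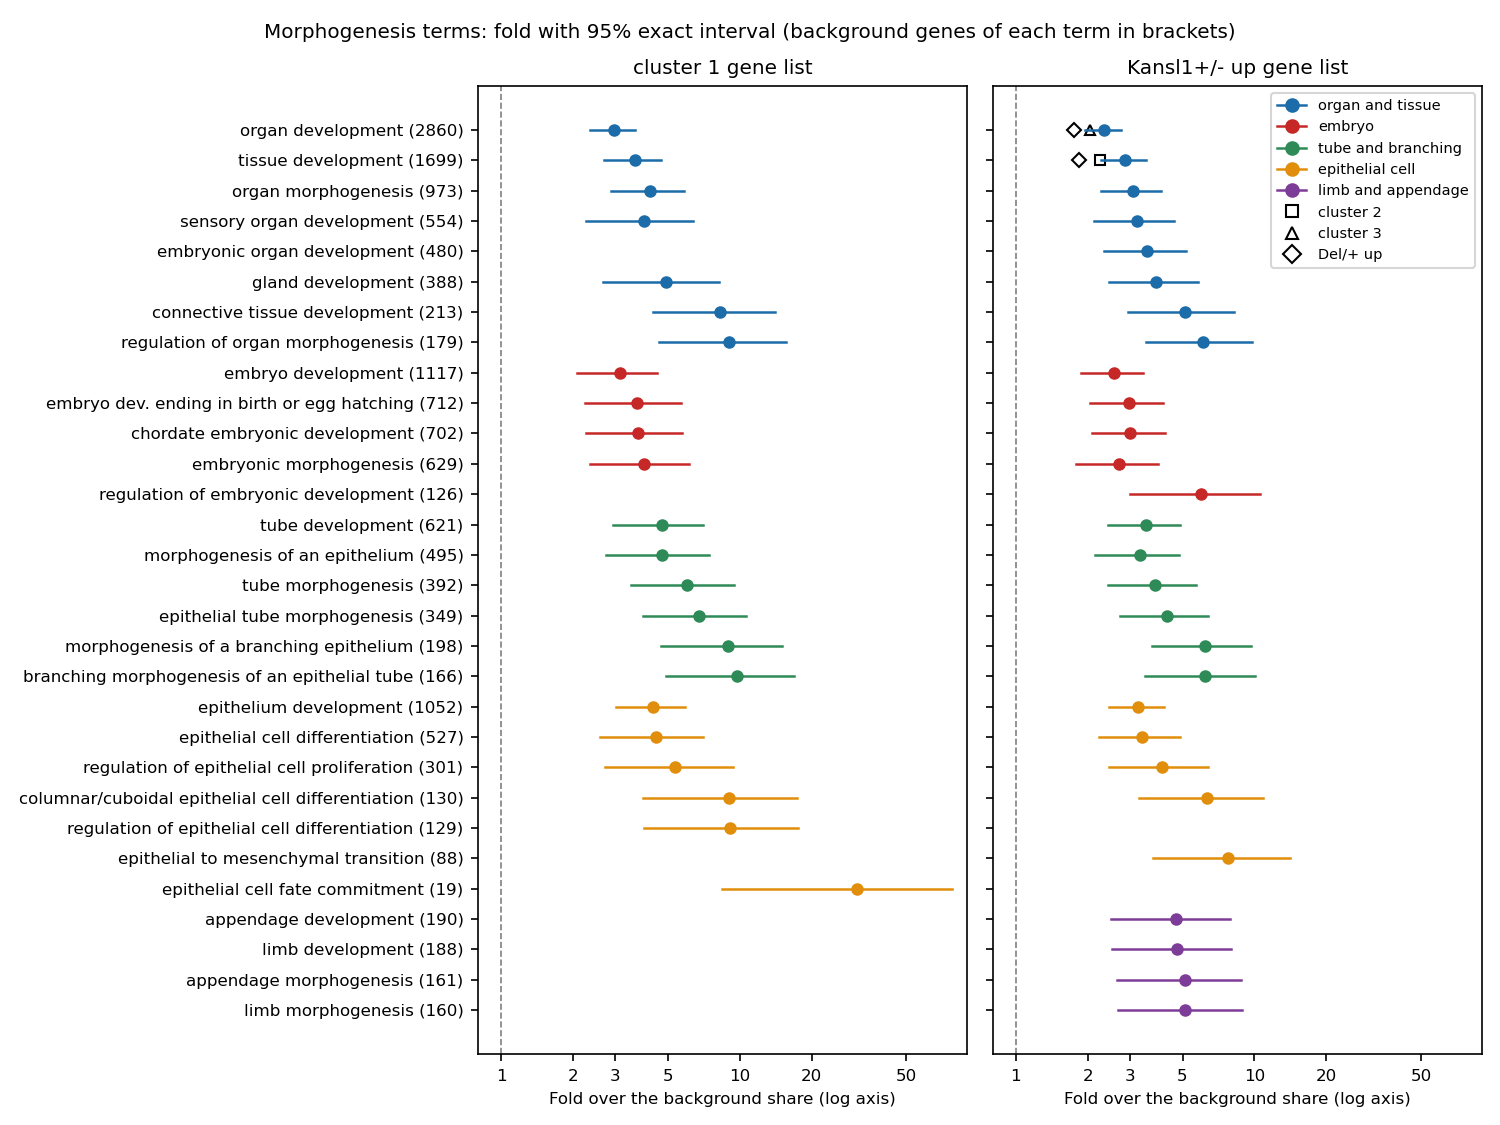
Fold of each of the 30 terms over its background share (log axis) with the exact 95% interval, by family, in cluster 1 (left) and Kansl1+/- up (right), with open symbols on the right for the folds in cluster 2, cluster 3 and Del/+ up. The lower limit of every listed term lies above 1 in both panels, as the listing requires, and the limb and appendage terms appear on the right only.

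Terms on the embryo as a whole numbered 5, of which 4 were listed for cluster 1 (median 3.73-fold) and all 5 for Kansl1+/- up (2.98-fold). Embryo development held 24 genes in cluster 1 (15.0%, interval 9.85 to 21.5) and 42 in Kansl1+/- up (12.2%, 8.97 to 16.2), where the background share was 4.76%. Chordate embryonic development and embryo development ending in birth or egg hatching each counted 18 genes in cluster 1 and 31 in Kansl1+/- up, because the broader of these nested terms adds 10 background genes and no list gene. They are close to 1 observation. Embryonic morphogenesis held 17 and 25 of 629 genes, 3.96-fold and 2.72-fold. Regulation of embryonic development, a control term, was listed for Kansl1+/- up alone, with 11 of 126 genes (5.97-fold, interval 3.00 to 10.6).

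Tubes and branching were the family with every term in both lists: 6 of 6 in cluster 1 (median 6.36-fold) and 6 of 6 in Kansl1+/- up (4.08-fold). Tube development held 20 genes in cluster 1 (12.5%, 7.81 to 18.6) and 32 in Kansl1+/- up (9.33%, 6.47 to 12.9), against 2.65% of the background. Branching morphogenesis of an epithelial tube, the budding seen in lung or kidney, held 11 and 15 of 166 genes, 9.72-fold (interval 4.92 to 16.9) and 6.18-fold (3.49 to 10.1). Morphogenesis of a branching epithelium held 12 and 18 of 198 genes, 8.89-fold and 6.22-fold.

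Several terms of this family rested on the same genes. Tube morphogenesis, morphogenesis of an epithelium and epithelial tube morphogenesis all counted 16 genes in cluster 1, from backgrounds of 392, 495 and 349. In GO the last of these is nested in both others, so the 43 background genes of tube morphogenesis outside it held 0 genes of cluster 1, where 0.293 were expected (interval up to 12.4-fold), and the 146 of morphogenesis of an epithelium held 0, where 0.995 were expected (up to 3.66-fold). In Kansl1+/- up, tube morphogenesis and epithelial tube morphogenesis both counted 22 genes, and morphogenesis of an epithelium counted 24. The expected numbers are too small for the zeros to show a lack, but the 3 folds of cluster 1, 5.99, 4.74 and 6.72, rest on 1 set of 16 genes. Branching morphogenesis of an epithelial tube supplied 11 of these, and the 183 unbranched background genes of epithelial tube morphogenesis supplied 5 (4.01-fold, 1.31 to 9.16). Tube development also held genes beyond tube morphogenesis, 4 of 229 in cluster 1 (2.56-fold, 0.702 to 6.43) and 10 of 229 in Kansl1+/- up (2.99-fold, 1.44 to 5.43).

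Epithelial cell terms numbered 7, of which cluster 1 listed 6 (median 7.19-fold) and Kansl1+/- up 5 (4.09-fold). Epithelium development was the largest, with 31 of 160 genes in cluster 1 (19.4%, 13.6 to 26.4) and 50 of 343 in Kansl1+/- up (14.6%, 11.0 to 18.8), against 4.48% of the background. Its folds were 4.32 and 3.25. Epithelial cell differentiation held 16 and 26 of 527 genes, 4.45-fold and 3.38-fold, and its narrower term, columnar/cuboidal epithelial cell differentiation, held 8 and 12 of 130, 9.03-fold and 6.32-fold. Regulation of epithelial cell proliferation held 11 and 18 of 301 genes, 5.36-fold and 4.09-fold.

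The other 3 epithelial cell terms were listed for 1 of these lists each. Regulation of epithelial cell differentiation was listed for cluster 1 with 8 of 129 genes (9.10-fold, 3.97 to 17.5). Epithelial cell fate commitment was listed for cluster 1 with 4 of 19 genes. Its 30.9-fold is the highest among the members, with an interval of 8.46 to 77.5 that reflects the 4 genes behind it. Epithelial to mesenchymal transition, the change by which epithelial cells become motile, was listed for Kansl1+/- up with 10 of 88 genes (7.77-fold, 3.75 to 14.1), and can have held at most 6 genes in cluster 1.

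Limb and appendage terms numbered 4 and were listed for Kansl1+/- up alone. Limb development held 13 of 188 genes (3.79%, 2.03 to 6.39, and 4.73-fold) and limb morphogenesis 12 of 160 (5.13-fold). Appendage development and appendage morphogenesis held the same numbers of genes, 13 of 190 and 12 of 161, because they add 2 and 1 background genes to the limb terms. The family therefore rests on 13 genes, of which 12 carry the morphogenesis terms. Each of the 4 terms had 0 genes to spare: with 1 gene fewer it would not have been listed. Cluster 1 can have held up to 8 genes of each, which, if all of cluster 1 lies inside the Kansl1+/- up list, leaves at least 5 genes of the development terms and 4 of the morphogenesis terms outside cluster 1.

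The absence of a member from a table is not an absence of its genes. Every listed row had a hypergeometric tail probability under 1e-05, the largest being 9.91e-06. The limit is inferred from these rows. All ceilings and margins given here assume that every term under it was listed. On that assumption, an unlisted term can hold any count below the one that would reach the limit. For organ development that ceiling was 48 genes in cluster 2 (22.4%), 39 in cluster 4 (24.1%), 91 in Kansl1+/- down (18.8%) and 69 in Del/+ down (20.1%). For epithelium development it was 43 genes in Kansl1+/- down (8.90%) and 34 in Del/+ down (9.91%), against 50 observed in Kansl1+/- up.

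Shares in the list compared against were the listed ones or, for terms unlisted there, the largest possible. With the intervals of both shares taken into account, the share in cluster 1 lay above that in cluster 2 for 1 of 23 members. This was organ development, also the 1 term of all 190 listed for cluster 1 (0.526%) to do so. Above clusters 3 and 4 the share in cluster 1 lay for 0 of 23 members and 0 of 190 terms (0% for both). Against Kansl1+/- down it lay above for 4 members (17.4%), organ development, tissue development, organ morphogenesis and epithelium development, against 17.9% of all terms. The same 4 (17.4%) lay above Del/+ up, against 7.89% of all terms, and 2 (8.70%), organ development and tissue development, lay above Del/+ down, also against 7.89%. The Kansl1+/- up list lay above Kansl1+/- down for 2 of 28 members (7.14%), organ development and tissue development, against 6.62% of its 302 terms. It lay above Del/+ up for tissue development alone, the 1 term of all 302 (0.331%), above Del/+ down for 0 members, against 1.32% of terms, and above clusters 1 to 4 for 0 members and 0 terms. Against both down lists the members' shares were thus near those of all terms. For the remaining members the intervals overlapped, although most are listed on one side only. Where a term is unlisted its count is not in the table and the largest possible count took its place, so an overlap does not show that the lists are alike.

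**Figure D3:**
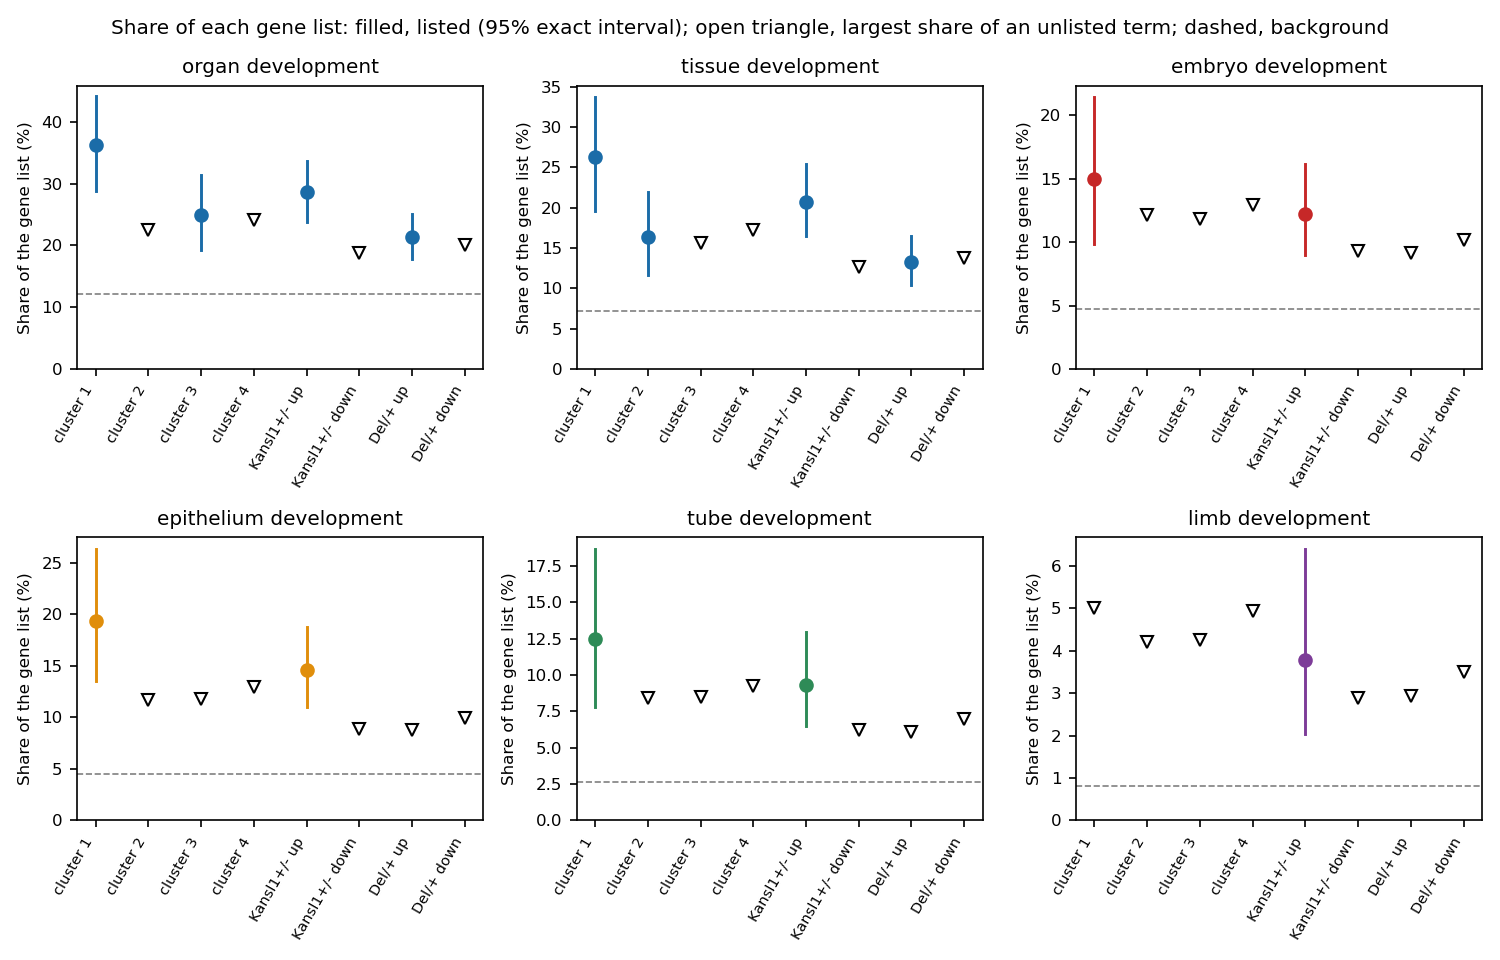
Share of each of the 8 gene lists (%) that falls in 6 member terms: filled points are listed shares with exact 95% intervals, open triangles are the largest share an unlisted term can have, and dashed lines are the background shares. For organ development cluster 1 stands at 36.3% and Del/+ up at 21.3%, and for limb development the triangle of cluster 1 lies above the point of Kansl1+/- up at 3.79%.

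Part of each broad term was made up by its narrower members, which the nesting of GO allows to be subtracted. Organ development outside organ morphogenesis held 30 of 1887 genes in cluster 1 (2.33-fold, 1.62 to 3.19) and 54 in Kansl1+/- up (1.96-fold, 1.5 to 2.49). Tissue development outside epithelium development held 11 of 647 genes in cluster 1 (2.49-fold, 1.26 to 4.34) and 21 in Kansl1+/- up (2.22-fold, 1.39 to 3.34). The broad terms thus kept a share above the background without these narrower ones. Epithelium development outside morphogenesis of an epithelium held 15 of 557 genes in cluster 1 (3.95-fold, 2.25 to 6.32), close to the 4.74-fold of the narrower term. Epithelial cell differentiation outside the columnar and cuboidal term held 8 of 397 (2.96-fold, 1.29 to 5.68). Embryo development outside its term ending in birth held 6 of 405 (2.17-fold, 0.805 to 4.63), an interval that includes 1.

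The Kansl1+/- up list was split into cluster 1 and its other 183 genes by subtraction, on the assumption that all 160 genes of cluster 1 lie within the list. The tables used here name no genes, so the assumption could not be checked directly from them. The marker genes that the paper says its supplement lists were not used for a check. In 0 of 163 terms listed for both did cluster 1 hold more genes than the whole list. This count could hardly have come out otherwise, since the larger list needs more genes for a term to be listed. At 500 background genes it needs 22, where cluster 1 needs 14. Terms listed for cluster 1 and not for Kansl1+/- up were not checked. Clusters 1 and 2, both described as raised in Kansl1+/-, together hold 374 genes, 31 more than the 343 of the list, so a cluster's description does not by itself place all its genes in the list. The values for the other 183 genes hold only under this assumption. Under it, cluster 1 made up 46.6% of the list and held between 57.1% (embryo development) and 75.0% (connective tissue development) of its genes in the 21 shared members, with a median of 62.5%, against 58.9% over all 163 terms. The other 183 genes had a median fold of 2.37 (1.63 to 3.95) over the 21 members, where cluster 1 had 4.72. The fold was lower outside cluster 1 for 21 of 21 members, and likewise for 163 of 163 shared terms (100%), as a term was taken here only if cluster 1 listed it. Nothing particular to the members can be read from that direction.

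Among the members, the intervals lay apart for 1 of 21 (4.76%), against 3.07% of the 163 shared terms. It was organ development, with 40 of 183 genes (21.9%, 16.1 to 28.6, and 1.79-fold) outside cluster 1 and 36.3% within it. Tissue development held 29 (15.8%, 10.9 to 22.0) and epithelium development 19 (10.4%, 6.37 to 15.7) outside cluster 1, both above their background shares. For 15 of 21 members (71.4%) the interval outside cluster 1 lay above the background share, near the 74.2% of all 163 shared terms. The 6 others were embryonic morphogenesis, morphogenesis of an epithelium, tube morphogenesis, epithelial tube morphogenesis, branching morphogenesis of an epithelial tube and connective tissue development, with 4 to 8 genes each. Epithelial tube morphogenesis, for example, held 16 genes in cluster 1 and 6 outside it (3.28%, 1.21 to 7.0, against a background of 1.49%).

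**Figure D4:**
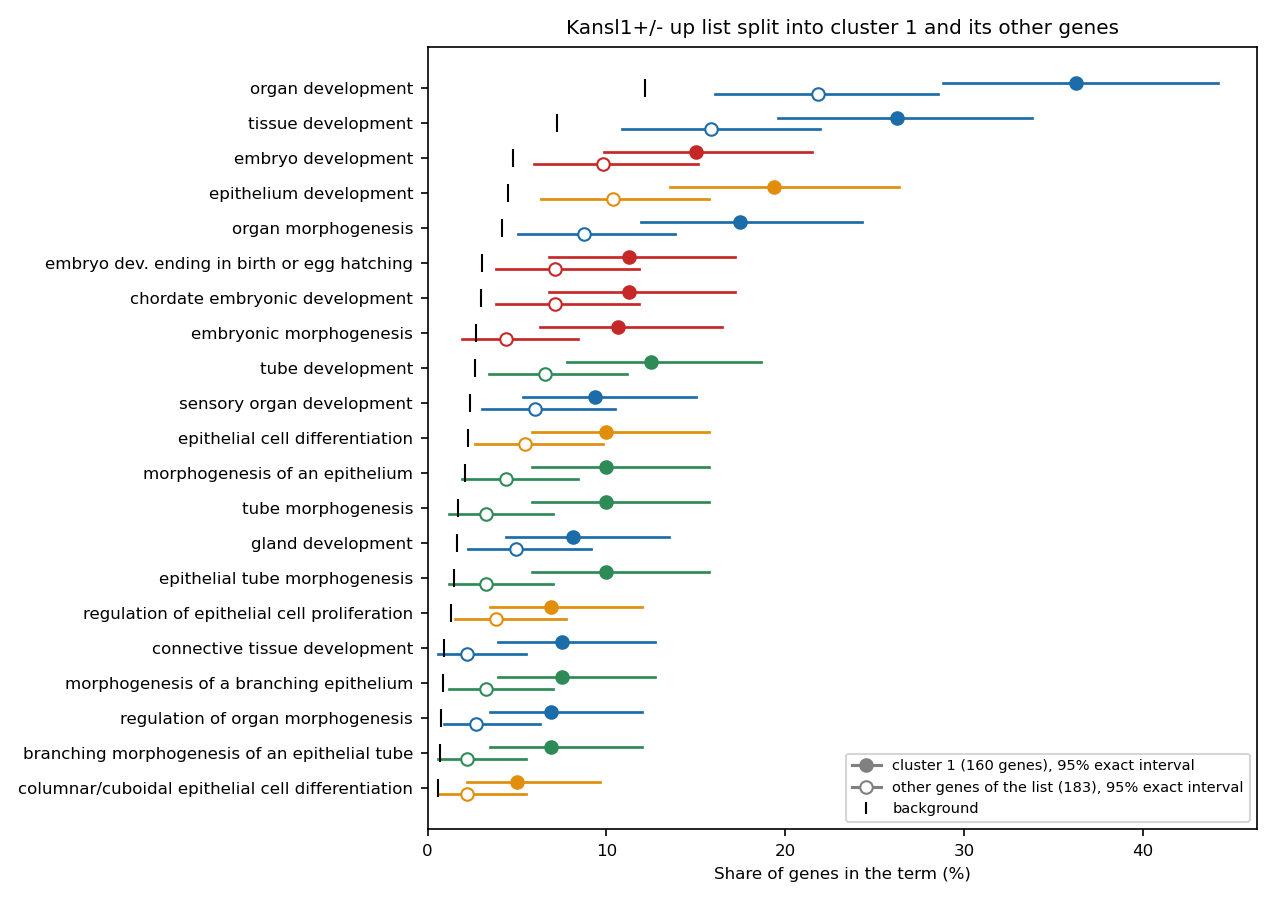
Share of genes (%) in each of 21 terms for the 160 genes of cluster 1 (filled) and the other 183 genes of the Kansl1+/- up list (open, if all of cluster 1 lies in that list), with exact 95% intervals and the background share as a tick. The open points lie to the left of the filled ones throughout, as they do for all 163 shared terms, and the intervals are apart for 1 of the 21 terms, organ development, against 3.07% of all shared terms.

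The tables arrange terms in blocks of related terms made by the authors, which show what stood beside the members. In cluster 1, members fell in 9 of 28 blocks, and the 6 tube and branching terms stood in 1 block with morphogenesis of a branching structure, tissue morphogenesis and respiratory system development. In Kansl1+/- up they fell in 9 of 35 blocks, and the 4 limb and appendage terms formed a block of their own. The single member of cluster 3, organ development, stood with nervous system development, generation of neurons and neurogenesis. Both members of Del/+ up also stood in a block with those terms. Central nervous system development stood beside 3 members in a block of cluster 1 and beside 7 in a block of Kansl1+/- up.

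Another 21 terms of the same developmental field, which are no members, were set beside them. Other developmental terms, such as tissue morphogenesis, were not counted. The 21 covered anatomical structure development and morphogenesis, cell fate commitment, regionalization, stem cells, mesenchyme, cell proliferation and regulation of BMP signaling. Such terms made up 12 of 190 terms in cluster 1 (6.32%) and 20 of 302 in Kansl1+/- up (6.62%). In clusters 2, 3 and 4 they were 3 of 104 (2.88%), 3 of 125 (2.40%) and 1 of 89 (1.12%), in Del/+ up 6 of 250 (2.40%), and in the down lists 0 of 14 and 0 of 2. Their median fold was 4.17 in cluster 1, near the 3.99 of all its terms, and 4.44 in Kansl1+/- up, where all terms had 3.05. A fold of at least 3 was reached by 11 of 12 in cluster 1 and 15 of 20 in Kansl1+/- up, where 74.2% and 52.6% of all terms reached it. It was reached by 1 of 3 in cluster 2 and by none in cluster 3, cluster 4 or Del/+ up, where 62.5%, 59.2%, 75.3% and 53.2% of all terms did.

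Signalling by BMP, a secreted growth factor of many epithelia, gave the highest fold of these terms. That fold belongs to the smallest of them, with 36 background genes, and a small term needs a high fold to be listed. Term names were also searched for WNT, Notch, hedgehog, smoothened, fibroblast growth factor, transforming growth factor and retinoids. No listed term held any of these. Positive regulation of BMP signaling pathway held 6 of 36 genes in cluster 1 (24.4-fold, 9.05 to 52.0), and regulation of BMP signaling pathway held 7 of 89 in cluster 1 (11.5-fold, 4.69 to 23.2) and 9 in Kansl1+/- up (6.92-fold, 3.18 to 13). Cell fate commitment, the locking in of a cell's identity, held 14 of 278 genes in cluster 1 (7.39-fold) and 21 in Kansl1+/- up (5.17-fold). Mesenchymal cell development held 8 and 13 of 143 genes, 8.21-fold and 6.22-fold, whereas mesenchyme development (16 of 210, 5.21-fold), stem cell maintenance (13 of 157, 5.67-fold) and regionalization, the division of a field into areas (18 of 363, 3.39-fold), were listed for Kansl1+/- up alone. Anatomical structure morphogenesis, the parent of many members, was listed for 4 lists, with 52 genes of 2340 in cluster 1 (3.26-fold), 49 in cluster 3 (2.32-fold), 85 in Kansl1+/- up (2.49-fold) and 106 in Del/+ up (2.08-fold). 1 epithelial term fell outside the members by its name: epithelium migration, listed for cluster 2 alone with 7 of 77 genes (9.97-fold, 4.04 to 20.2).

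The margin behind each listing differed widely. Organ development could have lost 18 genes in cluster 1 and 28 in Kansl1+/- up and still been listed. In cluster 1, 6 of 23 members had 0 genes to spare: gland development, sensory organ development, regulation of epithelial cell proliferation, regulation of epithelial cell differentiation, columnar/cuboidal epithelial cell differentiation and epithelial cell fate commitment. In Kansl1+/- up, 6 of 28 had 0 to spare, the 4 limb and appendage terms, embryonic morphogenesis and regulation of embryonic development, and tissue development in cluster 2 also had 0. Margins over all listed terms are not given, so these counts are not read as particular to the members.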

How the data were processed

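Hippocampal H3K4me3 ChIP-seq was profiled in 12 mice (3 Del/+ and 3 Kansl1+/- mutants, with 6 wt). The authors mapped reads with BWA 0.6.2 (mm9, per the submitters' processing notes), called peaks with a custom script, compared promoters with DESeq2, each mutant against all 6 wt, and tested GO terms with a hypergeometric test. The deposited tables give, for each term, gene counts in the list and the background, the authors' expected count as a score, and their fold and p-values with Bonferroni and Benjamini corrections. The authors' fold and p-values were not used. No column holds values of 1 sample, so 0 such columns were left unused.

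The 8 list sizes and the background of 23468 genes were derived from the counts and expected numbers (1 solution), and folds, exact 95% intervals and ceilings for unlisted terms (limit 1e-05) were computed from them. These covered counting error only, and no test was run: genes of 1 list are not replicates, and terms are nested. Scripts were tested on simulated data. The members, families, related terms and alternatives were chosen with earlier results of these data known. Every member was named, and the related terms were a chosen set that does not take in every developmental term. Nested pairs came from knowledge of GO. Alternatives were the treatment of excluded words, broad terms and near-duplicates, 1 gene fewer, other fold thresholds and listing limits, and the background outside the list. No sequence is shown, as the tables used here name no gene. Computations ran in Python 3.11.15 with scipy 1.17.1 and numpy 2.4.6, and plots in matplotlib 3.10.9.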

Additional observations from a re-analysis of the deposited data

How the results depend on the processing

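Of 74 alternative values, 65 stayed within the set range, 9 moved and 0 reversed. The 65 do not measure stability, as many could not have moved. A list with 0 members kept 0 under any alternative that only removed terms or genes. A list with 1 member had no near-duplicates to drop, and 0 members at 3-fold stayed 0 at 4-fold. The range was also wide: the 65 included 17 members listed for cluster 1 in place of 23, and 16 members at 4-fold in cluster 1 in place of 22 at 3-fold. For the number of members listed in cluster 2, 1 at first, the count was 2 with the excluded words kept, 0 with terms of at most 1000 background genes and 0 with 1 gene fewer and the listing limit kept, an alternative chosen after seeing the data that left 17 in cluster 1 and 22 in Kansl1+/- up. With terms of at most 1000 background genes, 0 members were left in cluster 3 and 0 in Del/+ up, so no median fold could be given there or in cluster 2. At 2-fold in place of 3-fold, 1 member in cluster 2 and 1 in cluster 3 passed, and at 4-fold 13 of 28 in Kansl1+/- up did. The matching counts over all listed terms are not given for 2-fold, 4-fold or 1 gene fewer. Nothing particular to the members is therefore read from these alternatives. Without intervals, the share in cluster 1 lay above clusters 2, 3 and 4 for 23 of 23 members, which the listing limit largely fixes, against 0 with intervals.

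No paired analysis was possible because the tables hold no values per mouse. Likewise no replicate was left out. The number of genes in a list limits every value here.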
